A study of Homo sapiens with 12 samples.

Results

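NEAT1 is a nuclear long non-coding RNA, and NONO, SFPQ, PSPC1 and MATR3 are genes of nuclear RNA-binding proteins that act with it. These 5 genes were taken by name from the authors' 4 deposited tables of m6A differences, where they hold 194 of 296568 windows and are 5 of 16417 genes. NEAT1 holds 112 of the 194 windows, MATR3 31, NONO 19, SFPQ 18 and PSPC1 14. The genes were selected on these tables, with the calls of NEAT1 (its log2 fold changes and their false discovery rates) already known, so every value below is a description and no test of the choice is given.

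The tables come from a human line of acute myeloid leukaemia, NOMO-1, grown as bulk cultures under puromycin after infection with lentivirus. The cells carried guide sgMETTL16-1 or guide sgMETTL16-2, both against the RNA methyltransferase gene METTL16, or the control guide sgNS, with no other treatment. Polyadenylated RNA was sequenced as it was (input) and after pull-down with an antibody against m6A (immunoprecipitation, IP). There were 12 libraries, 2 of input and 2 of IP for every one of the 3 guides. Each table compares 1 knockout guide with sgNS and carries a number. This number was read as the replicate number, which the sources used here do not state. The labels describe puromycin-selected cells and no clone, so a smaller share of edited cells and a smaller change per cell cannot be told apart.

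Each window is a stretch of 1 transcript for which the tables give the fold enrichment (IP over input) and the log2 fold change of this enrichment, knockout against sgNS. A window is enriched when the authors' false discovery rate (FDR) of IP over input is under 0.05, and called when their FDR of the difference is under 0.05. Negative log2 fold changes are taken to mean less m6A in the knockout. That is the usual sense of such columns, but the tables do not say so, and all directions given here would turn with the other sense. Values of single libraries were not used here, so no replicate error stands beside a fold change, the depth is unknown, and the 2 tables of a guide are its only repeats. The labels do not say that replicate numbers are separate cultures. Which sgNS libraries entered each table is not given in the sources used here. Tables with the same replicate number may share them, and are then not independent.

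m6A is written on most messenger RNAs by the METTL3-METTL14 complex, while METTL16 is known for a few structured targets, above all the MAT2A messenger RNA and the U6 small nuclear RNA. NEAT1 is the scaffold of paraspeckles, nuclear bodies that hold back certain RNAs and proteins. It is made as a short isoform that is polyadenylated, and as a long isoform from the same start whose end is shielded by a triple helix and not by a poly(A) tail. Poly(A) selection therefore favours the short isoform at the 5′ part of the gene. NONO, SFPQ and PSPC1 form the DBHS protein family, which pair with each other and coat NEAT1. NONO and SFPQ are needed for paraspeckles to form. MATR3, a nuclear matrix protein, binds RNA and associates with NONO and SFPQ.

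Over the whole series, the tables held between 70002 and 79372 windows, of which 8.1% to 12.3% were enriched. The log2 fold change had a median of 0 over all windows in every table. Its median over the enriched windows, in replicates 1 and 2 in that order, was -0.04 and 0.13 for sgMETTL16-1, and was 0.13 and 0.14 for the other guide. All 9 markers of a monocytic leukaemia line that were looked up, LYZ, MPO, CD33, CD14, ITGAM, CSF1R, SPI1, CEBPA and KMT2A, had windows in every table, and 3 or 4 of them had an enriched one. Of 4 lymphoid markers, 2 had windows in every table, 1 of them with an enriched window in 1 table, and MS4A1 and CD3E had none. The erythroid markers ALAS2 and KLF1 also had windows in every table, and 1 of these genes had an enriched one in 3 tables, while HBB had none. Windows were thus listed for genes of other lineages too, and a listed window does not by itself mark the cell type. The tables give m6A relative to input and no RNA level, so they do not check the knockout of METTL16 itself.

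NEAT1 was called lower in all 4 of the authors' deposited tables, each time over the same stretch of the 5′ part of the transcript, and no NEAT1 window was called higher. RefSeq lists it as a long non-coding RNA on the plus strand of chromosome 11 (GRCh38, 65422798 to 65445540), with a length of 22743 bases. In the authors' deposited table of sgMETTL16-1 replicate 1, the window from 65424326 to 65424656 had a log2 fold change of -0.34 (FDR = 0.0141). The authors' deposited table of sgMETTL16-1 replicate 2 gave -0.43 (FDR = 1.26e-09) for the longer window from 65423547 to 65424626. In sgMETTL16-2 replicate 1, the window from 65424326 to 65424656 stood at -0.71 (FDR = 8.91e-10) in the authors' deposited table. The authors' deposited table of sgMETTL16-2 replicate 2 gave -0.29 (FDR = 0.000214) for 65423577 to 65424626.

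These 4 windows share the 301 bases from 65424326 to 65424626, which start 1528 bases after the annotated 5′ end. The larger of a guide's 2 changes stood in replicate 2 for sgMETTL16-1 and in replicate 1 for sgMETTL16-2. Because the replicate 2 windows are 1080 and 1050 bases long and the replicate 1 windows 331, none of them covers 0.5 of the bases of both, and by that rule no NEAT1 window counted as called in both tables of a guide. Of all matched windows, 0.0449% were called lower in both tables of sgMETTL16-1, and 0.0613% with sgMETTL16-2. With any shared base in place of 0.5, chosen after seeing the data, 1 window of each guide did. After the median of the enriched windows was subtracted from each table (the shift), the call in sgMETTL16-1 replicate 1 was lost at -0.30 (recomputed FDR = 0.156, two-sided), while the other 3 tables kept theirs. The medians of those 3 tables were positive, so the shift made their negative values larger in size. It is therefore no check of these 3 calls.

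Over all windows, 0.281% were called lower in sgMETTL16-1 replicate 1 and 0.167% in replicate 2, and 0.965% and 0.149% in the same order for sgMETTL16-2. Among enriched windows these shares were 2.79%, 0.766%, 4.38% and 0.676%. NEAT1 had 1 called window of 5 enriched ones, 1 of 2, 2 of 5 and 1 of 2 in the same order. NEAT1 was picked for these calls, so nothing is read from the comparison with the background. By FDR, the strongest NEAT1 window ranked 151 of 223 lower calls in sgMETTL16-1 replicate 1 and 10 of 119 in replicate 2. For sgMETTL16-2 it ranked 38 of 731 and 25 of 104. By the size of the log2 fold change, the same windows ranked 152, 102, 527 and 98, so in the last 3 tables they stood much further up by FDR than by size.

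**Figure D1:**
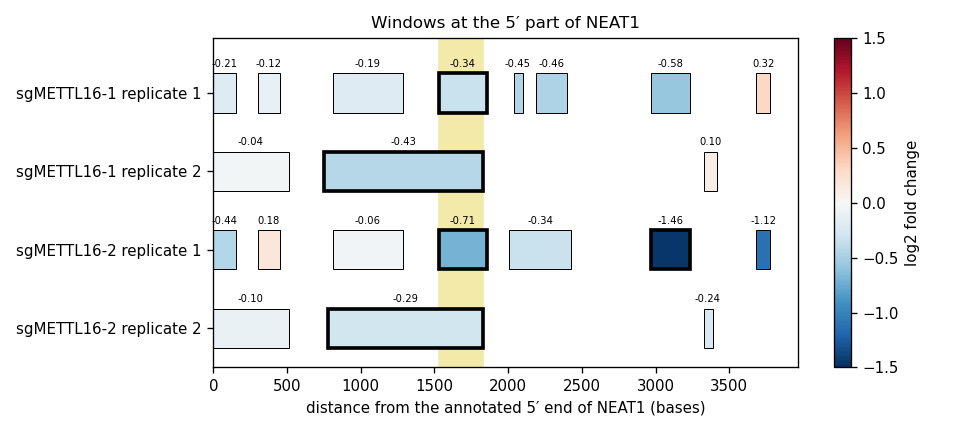
Windows within the first 4000 bases of NEAT1 in each table, by distance from the annotated 5′ end in bases. The colour and the number give the log2 fold change of m6A enrichment, knockout against sgNS, thick outlines mark called windows (FDR under 0.05), and the yellow band marks the 301 bases that the called windows of all 4 tables share.

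A second NEAT1 window was called in 1 table. In sgMETTL16-2 replicate 1 the authors' deposited table gave -1.46 (FDR = 0.000759) for the window from 65425764 to 65426034, the largest change among the called NEAT1 windows. For sgMETTL16-1 replicate 1 the same 271 bases stood at -0.58 (FDR = 0.485, not called) in the authors' deposited table. The replicate 2 tables list no window over these bases. Their nearest one starts at 65426124 and was enriched in neither, and the authors' deposited tables put it at 0.10 with sgMETTL16-1 and at -0.24 with sgMETTL16-2.

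The very start of NEAT1 was enriched in every table and called in none. For the first window, from 65422798 to 65422948, the authors' deposited replicate 1 tables gave -0.21 (FDR = 0.655) with sgMETTL16-1 and -0.44 (FDR = 0.185) with sgMETTL16-2. The first window reaches to 65423307 in replicate 2, where the authors' deposited tables gave -0.04 (FDR = 0.658) and -0.10 (FDR = 0.65). All 4 values were negative, and in each table the first window lay closer to 0 than the called one. The window from 65423098 to 65423247, listed in the replicate 1 tables, stood at -0.12 for sgMETTL16-1 and at 0.18 for sgMETTL16-2 (authors' deposited tables). For the next one, from 65423607 to 65424086, the authors' deposited tables of the 2 guides gave -0.19 (FDR = 0.442) and -0.06 (FDR = 0.659). These bases lie inside the called windows of replicate 2, whose extent the replicate 1 tables split into separate windows.

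By the FDR of IP over input, m6A enrichment was seen at the 5′ part of the gene. All 14 enriched NEAT1 windows ended within the first 3237 bases, which is 14.2% of the annotated length, and so did all 5 called ones. The other 98 windows were not enriched, and 91 of these start beyond the first 4000 bases. Those 91 windows were between 60 and 301 bases long, and their smallest FDR of IP over input was 0.0871 by the authors' deposited tables. Their median fold enrichment was nevertheless the higher one, at 1.61 and 1.69 with sgMETTL16-1 and 1.72 and 1.47 with sgMETTL16-2. In the first 4000 bases it was 1.33 and 1.43, then 1.35 and 1.39. The FDR thus does not show that the far part of NEAT1 lacked m6A. The log2 fold changes of the 91 windows ran from -3.15 to 3.91 in the authors' deposited tables. The medians were 0.30 and -0.26 with sgMETTL16-1, and with sgMETTL16-2 they were -0.45 and -0.36. The value of 3.91, in sgMETTL16-1 replicate 2, was not called (FDR = 0.0891 by the authors' deposited table). One of them, near 65442093, was listed in every table, and the authors' deposited tables put it at -0.79 and -0.52 for sgMETTL16-1, then at -0.73 and 1.92 for sgMETTL16-2, none called. Within the first 4000 bases the values kept to a narrower range, from -1.46 to 0.32 in the authors' deposited tables, and 18 of 21 were negative. Beyond them, 6 of 21 and 14 of 25 were negative with sgMETTL16-1, and 11 of 18 and 17 of 27 with sgMETTL16-2. The near windows include the 5 calls for which NEAT1 was picked, and windows of 1 transcript are no replicates. Nothing is therefore read from these counts.

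**Figure D2:**
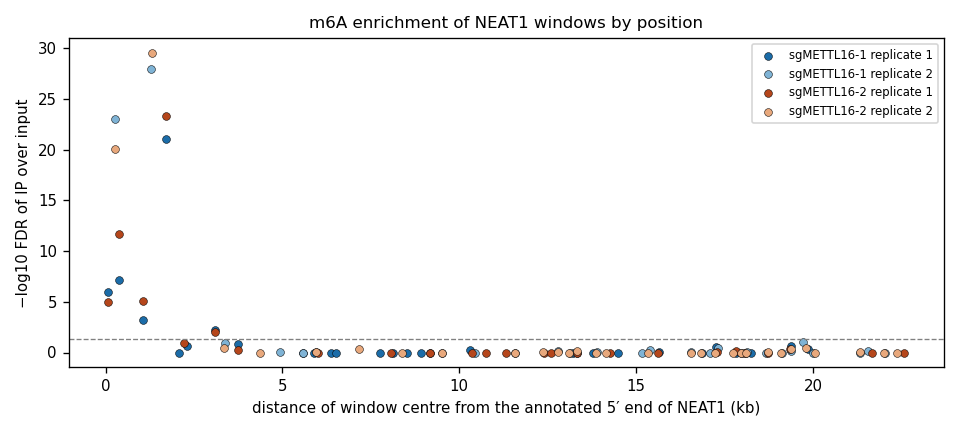
The −log10 FDR of IP over input of every NEAT1 window, by the distance of its centre from the annotated 5′ end in kb, coloured by table. The dashed line marks an FDR of 0.05, and every window above it ends within the first 3237 bases. A point below the line does not show that m6A was absent there.

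**Figure D3:**
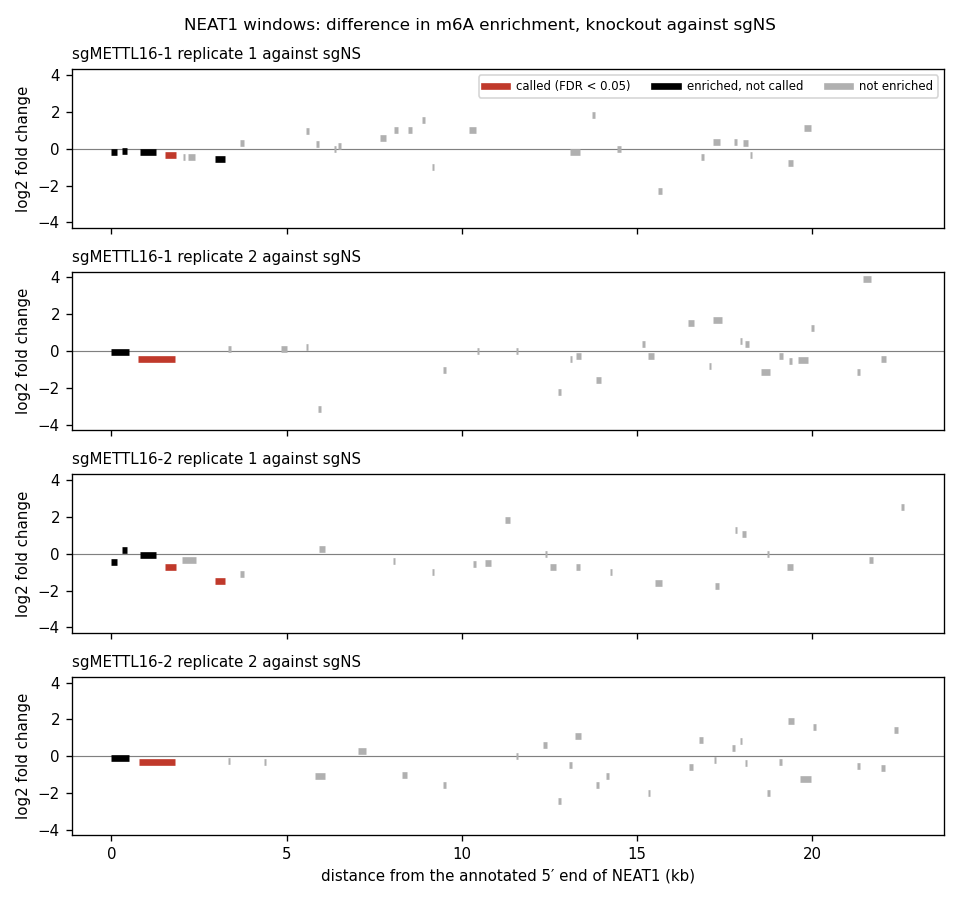
Log2 fold change of every NEAT1 window (knockout against sgNS) along the gene in kb, 1 panel for each table, with the length of each bar to scale. The called windows (red) lie at the 5′ part, and the windows further along (grey, not enriched) scatter from -3.15 to 3.91.

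The called NEAT1 windows had a small fold enrichment with a small FDR. The authors' deposited tables put their IP over input enrichment between 1.46 and 1.55, while the median over all enriched windows was between 1.78 and 1.92. Over all windows called lower, the median fold enrichment was 1.42 and 1.37 for sgMETTL16-1, and 1.56 and 1.38 for sgMETTL16-2, so the NEAT1 values lay close to those of lower calls at large. Of the enriched windows of each table, between 15.4% and 22.9% had a lower fold enrichment. The FDR of IP over input of the called window over the shared bases was 1e-21 and 1.26e-28 for sgMETTL16-1, and 5.01e-24 and 3.16e-30 for sgMETTL16-2, by the authors' deposited tables. With a fold enrichment of at least 2 as a condition, no NEAT1 window was called in any table.

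NEAT1 was also matched by its profile. Among 709 genes with at least 10 windows in each table, the distance from NEAT1 was taken over the medians of the window log2 fold changes in the 4 tables. NEAT1 had medians of 0.00 and -0.26 with sgMETTL16-1 and -0.44 and -0.32 with sgMETTL16-2. The nearest genes were the cytoskeletal linker gene DST at a distance of 0.139, the Polycomb gene PHC3 at 0.165, the long non-coding RNA TUG1 at 0.169, the centrosomal gene CNTRL at 0.202 and the aminotransferase gene BCAT1 at 0.204. These medians rest mostly on windows without enrichment, and the measure covers 4 tables. MALAT1, the other abundant nuclear long non-coding RNA of this locus, had lower calls and no higher one in all 4 tables as well. The authors' deposited tables held 2 and 1 of them for sgMETTL16-1, and 4 and 1 for sgMETTL16-2. MALAT1 had 10, 4, 10 and 5 windows in the same order, of which 3, 3, 3 and 2 were enriched. In sgMETTL16-2 replicate 1 it thus had a call without enrichment, unlike NEAT1, and its called changes there ran from -0.97 to -0.17. With sgMETTL16-1 they were -0.66 and -0.62 in replicate 1 and -0.51 in replicate 2. The call of sgMETTL16-2 replicate 2 was at -0.78. In these last tables each MALAT1 call was larger in size than the NEAT1 call of the same table.

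SFPQ, which binds RNA and DNA and is a core paraspeckle protein, changed in opposite directions in the 2 replicates of 1 guide. The gene lies on the minus strand of chromosome 1, from 35176380 to 35193145. The window that changed covers up to 300 bases in 3 or 4 blocks, starts between 35187015 and 35187105, and ends at 35189057 or before. The authors' deposited tables of sgMETTL16-1 gave -0.22 (FDR = 0.0158, a lower call) in replicate 1 and 0.34 (FDR = 6.92e-07, a higher call) in replicate 2. Those of sgMETTL16-2, also the authors' deposited tables, gave 0.03 (FDR = 0.659, not called) in replicate 1 and 0.32 (FDR = 1.20e-05, a higher call) in replicate 2. The values went with the replicate number more than with the guide, with both replicate 2 tables higher than both replicate 1 tables. Of all windows, 0.0743% and 0.583% were called higher in replicates 1 and 2 of sgMETTL16-1, as were 0.875% and 0.586% with sgMETTL16-2. Among enriched windows this share was 0.809%, 4.64%, 7.38% and 4.54% in the same order. After the shift by the enriched median none of these 3 calls was kept, at -0.19 (recomputed FDR = 0.294) and 0.21 (recomputed FDR = 0.0694) with sgMETTL16-1 and 0.19 (recomputed FDR = 0.254) with sgMETTL16-2.

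The 5′ side of SFPQ was called with sgMETTL16-2 in replicate 1. The window from 35192456 to 35192875, near the annotated start, stood at 0.67 (FDR = 3.16e-11) in the authors' deposited table, the smallest FDR of any member window. Over the same bases the authors' deposited tables gave 0.12 and 0.13 with sgMETTL16-1 and 0.18 in replicate 2 of sgMETTL16-2, none of them called. All 4 values were positive, and the called one stood apart from the other 3. A neighbouring window from 35191524 to 35192336 was called at 0.41 (FDR = 0.0339) in the authors' deposited table of sgMETTL16-2 replicate 1. The other 3 of the authors' deposited tables gave 0.12, 0.19 and 0.16, not called. Its call was lost with a two-sided p (recomputed FDR = 0.0906). Next to it, the window from 35190820 to 35190969 had a lower call in the same authors' deposited table, at -0.62 (FDR = 0.00107). The authors' deposited table of sgMETTL16-1 replicate 1 gave -0.10 for the window that covers it, not called, and the replicate 2 tables list none there. The window at the 3′ end of the gene, which starts at 35176378 or 35176408, was neither enriched nor called, and the authors' deposited tables gave it -0.07 and 0.28 for sgMETTL16-1, then 0.02 and 0.22 for sgMETTL16-2. SFPQ thus held calls in both directions within 1 table, at neighbouring windows.

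NONO, which pairs with SFPQ and PSPC1 and is needed for paraspeckles, was called higher in 3 of the 4 tables at 1 window. The gene lies on the plus strand of chromosome X, from 71283635 to 71301168. The window spans 4 blocks from 71296916 to 71298506, with a start at 71296945 in sgMETTL16-1 replicate 2. The authors' deposited tables put it at 0.24 (FDR = 0.0112) and 0.23 (FDR = 0.0166) in replicates 1 and 2 of sgMETTL16-2, and at 0.25 (FDR = 0.0105) in replicate 2 of sgMETTL16-1. In sgMETTL16-1 replicate 1 a shorter window inside it, of 180 bases, was at -0.15 (FDR = 0.655, not called) in the authors' deposited table. With sgMETTL16-2 it was called higher in both tables, as were 0.529% of 21192 matched windows, and no other matched window of the 5 genes had like calls in both tables of its guide. With sgMETTL16-1, 0.02% of all matched windows were called higher in both. The medians of all enriched windows in the 3 tables that called it were 0.13, 0.13 and 0.14. After the shift by those medians NONO stood at 0.12 and 0.09 with sgMETTL16-2 and at 0.11 with sgMETTL16-1, and no call was kept (recomputed FDR = 1 in each). NONO's 3′ window, from about 71300575 to 71300813, was positive and enriched in all 4 tables and called in none. The authors' deposited tables gave it 0.09 and 0.20 for sgMETTL16-1, and 0.14 and 0.21 for sgMETTL16-2.

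PSPC1 and MATR3 had no called window in any table. PSPC1 lies on the minus strand of chromosome 13, from 19671205 to 19782945, and 1 of its 14 windows was enriched. That window starts at 19677788 and was at 0.24 (FDR = 0.65) in sgMETTL16-2 replicate 2, with a fold enrichment of 1.39, in the authors' deposited table. The other 3 of the authors' deposited tables gave the same window -0.03 and -0.52 with sgMETTL16-1 and 0.16 in sgMETTL16-2 replicate 1, none of them enriched or called. With sgMETTL16-1 the PSPC1 window with the smallest FDR of IP over input lay elsewhere in each table. In replicate 1 it ran from 19772316 to 19772435 and stood at 0.51, with a fold enrichment of 1.67, in the authors' deposited table. The one of replicate 2 ran from 19782722 to 19782960, over the annotated start of the gene, and stood at -0.29, with a fold enrichment of 2.11, in the authors' deposited table. Neither was enriched by its FDR or called. MATR3 lies on the plus strand of chromosome 5, from 139274101 to 139331677, and 4 of its 31 windows were enriched, 1 in each table and all over the same bases from 139307675 on. The authors' deposited tables put this window at -0.27 (FDR = 0.46) and 0.12 (FDR = 0.658) for sgMETTL16-1, and at -0.29 (FDR = 0.263) and -0.05 (FDR = 0.65) for sgMETTL16-2. The replicate 1 values were alike in the 2 guides and the replicate 2 values lay nearer 0. An FDR above the threshold does not show that m6A on these 2 messenger RNAs was the same in knockout and control.

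**Figure D4:**
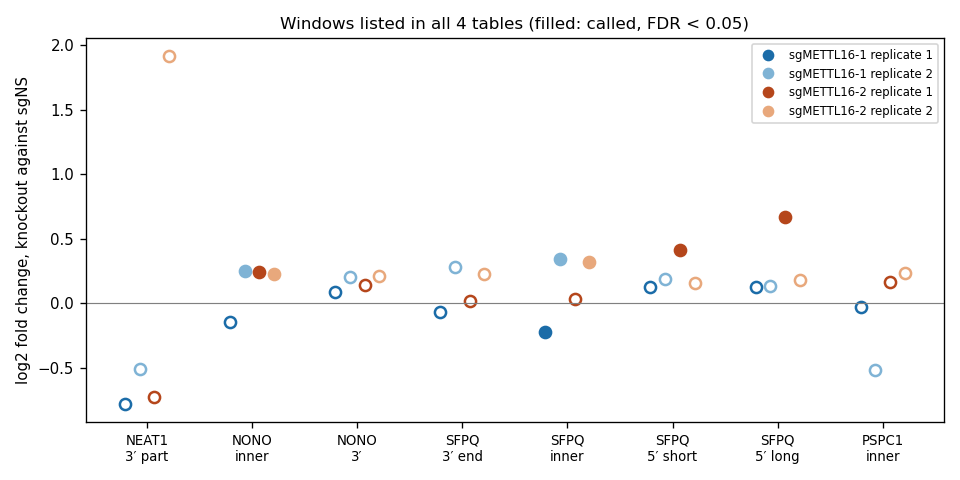
Log2 fold change, knockout against sgNS, of the 8 member windows listed in all 4 tables with at least 0.5 of the bases shared between each pair of tables. Each column holds the 4 tables by colour, and filled points are called (FDR under 0.05), which are 3 for the inner NONO window, 3 for the inner SFPQ window, and 1 for each SFPQ window at the 5′ side.

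Across the 5 genes, 14 of 194 windows were called, all of them among the 42 enriched ones, and they lie on 3 genes. In a single table and direction, between 0.0743% and 0.965% of all windows were called, and between 0.676% and 7.38% of the enriched ones. The genes were chosen with calls known, so nothing is read from their count. NEAT1 had 5 lower calls and no higher one, SFPQ 2 lower and 4 higher, and NONO 3 higher and no lower one. Of the NEAT1 windows, 4 pairs were matched between the 2 tables of sgMETTL16-1 and 5 between those of sgMETTL16-2, and none of these pairs was enriched or called. The 2 values of a pair had the same sign in 4 of 4 with sgMETTL16-1 and in 0 of 5 with sgMETTL16-2. A pair with a value of exactly 0 was counted as not the same.

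Other proteins found in paraspeckles were read from a list of 34 genes, of which 31 to 33 were listed in each table. The list had 1 gene called lower and 0 higher in sgMETTL16-1 replicate 1, and 0 lower and 8 higher in replicate 2. With sgMETTL16-2 it had 2 lower and 3 higher in replicate 1 and 0 lower and 3 higher in replicate 2. Over all genes in a table, 1.39%, 0.76%, 4.17% and 0.682% had a lower call and 0.368%, 2.51%, 3.66% and 2.52% a higher one, in the same order. Over the list's enriched windows the median log2 fold change was -0.06 and 0.20 for sgMETTL16-1, then 0.17 and 0.13 for sgMETTL16-2, against -0.04, 0.13, 0.13 and 0.14 over all enriched windows. No list gene was called in more than 2 tables, and 5 were called in 2.

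RBMX, an X-linked hnRNP protein gene, carried the largest changes among the called windows of the list. Its window from 136875151 to 136879026 on chromosome X was at -1.97 (FDR = 7.94e-21) in sgMETTL16-1 replicate 1 in the authors' deposited table. The authors' deposited table of sgMETTL16-2 replicate 1 gave -2.36 (FDR = 1.00e-27) for 136875122 to 136879026. The replicate 2 tables list no window there, and the 1 RBMX window of sgMETTL16-1 replicate 2 lay elsewhere, at -0.08 and not enriched, in the authors' deposited table. EWSR1, of the FET family of RNA-binding proteins, had a higher call in replicate 2 of both guides, where the authors' deposited tables gave 0.33 (FDR = 4.79e-06) for sgMETTL16-1 and 0.32 (FDR = 2.63e-05) for sgMETTL16-2. The authors' deposited replicate 1 tables gave -0.13 and 0.16 in the same order, not called. For AKAP8L, a nuclear anchoring protein gene, the authors' deposited tables gave 0.43 (FDR = 0.00316) and 0.47 (FDR = 0.000832) in replicate 2, against -0.38 and 0.20, not called, in replicate 1. UBAP2L was likewise called in replicate 2 and not in replicate 1, and the authors' deposited tables gave 0.34 (FDR = 0.00851) and 0.32 (FDR = 0.011), and then -0.17 and 0.12. SMARCA4, the chromatin remodeller ATPase gene, was called at 0.37 (FDR = 0.00501) in sgMETTL16-1 replicate 2 and at 0.42 (FDR = 0.0049) in sgMETTL16-2 replicate 1, and the other 2 of the authors' deposited tables gave -0.16 and 0.22, not called. Each table with a SMARCA4 call also called a second window of this gene higher. The authors' deposited tables gave it 0.34 (FDR = 0.0112) in sgMETTL16-1 replicate 2 and 0.85 (FDR = 0.0282) in sgMETTL16-2 replicate 1. HNRNPH1, a splicing regulator gene, was called in 1 table, sgMETTL16-1 replicate 2. Its window from 179618053 stood at 0.58 (FDR = 9.12e-05) there, and the other 3 of the authors' deposited tables gave -0.21, -0.20 and -0.07. A second HNRNPH1 window, from 179621251 to 179621341, was called at 0.80 (FDR = 0.00158) in the authors' deposited table of sgMETTL16-1 replicate 2.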

How the data were processed

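The submitters' processing notes name STAR and GRCh38, without a version of STAR. The sources used here give no peak caller or gene annotation. All values are the authors' own, as their file headers name them. Of the difference between knockout and sgNS, the log2 fold change was used with its p-value and FDR, which were deposited as log10 values. Of the enrichment (IP over input), the linear fold as deposited was used, with its FDR, also deposited as a log10 value. The deposited p-values of the difference reach about 0.51 in strongly enriched windows, as a one-sided test gives. In member windows without enrichment they stand as high as 0.833, so the one-sided reading is an assumption. The two-sided p and the shift rest on it.

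The 5 genes and all gene lists were chosen with earlier results of these data known. The named list genes are up to 6 with calls in the most tables, ties broken by the smallest FDR. The text covers every called member window, the one with the smallest FDR of IP over input for each gene and table, and those in all 4 tables. The 5 genes nearest to NEAT1 were chosen by distance.

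Windows of 2 tables with 1 gene name and strand were matched 1 to 1 where the overlap covered at least 0.5 of the bases of both, with Python 3.11.15, pandas 2.3.3 and SciPy 1.17.1. For the shift, each table's enriched median was subtracted and a two-sided p was computed with a standard error from the deposited p-value, then Benjamini-Hochberg adjusted over the table. Matching and the shift were tested on simulated data. Deposited starts count from 0 and are given from 1. The genes' ends are from RefSeq for GRCh38.p14. RefSeq lists pseudogenes of NONO, SFPQ, PSPC1 and MATR3, and how reads shared with them were counted is not given. No row of another gene shared bases with a member window. Exons and the bases under the windows were not used here.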

Additional observations from a re-analysis of the deposited data

Results flagged for a closer look

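The PSPC1 window that starts at 19677788 had values of opposite sign with the 2 guides. The authors' deposited tables gave log2 fold changes of -0.0341 and -0.52 for sgMETTL16-1, then 0.16 and 0.235 for sgMETTL16-2, so both tables of 1 guide were negative and both of the other positive. None of the 4 was called, the window was enriched in 1 table, sgMETTL16-2 replicate 2, and the difference between guides was not tested.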

How the results depend on the processing

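No paired analysis was possible because the tables hold the authors' finished comparisons and no values per library. Counts of calls are given in the order sgMETTL16-1 replicate 1 and 2, then sgMETTL16-2 replicate 1 and 2. As reported, lower NEAT1 windows numbered 1, 1, 2 and 1, lower windows of the 4 protein genes 1, 0, 1 and 0, and higher ones 0, 2, 3 and 2. Of 136 recomputed counts, 91 stayed within 1.5 times the reported one and 45 did not, and the cause was not tested beyond what each condition removes. The 91 include reported counts of 0, which a stricter condition cannot raise. They also include all counts with enriched windows alone, where the member calls were already enriched. The 91 are thus no measure of stability.

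With a fold enrichment of at least 2, lower NEAT1 windows numbered 0 in every table, as did the protein genes' windows in both directions, and the list kept 1, 0, 1 and 0 genes lower and 0, 0, 1 and 0 higher. With a log2 change of 0.5 or more in size, NEAT1 had 0, 0, 2 and 0 lower windows, the protein genes 0, 0, 1 and 0 lower and 0, 0, 1 and 0 higher, and the list 1, 0, 1 and 0 genes lower and 0, 1, 1 and 0 higher. At an FDR of 0.01, NEAT1 had 0, 1, 2 and 1 lower windows, the protein genes 0, 0, 1 and 0 lower and 0, 1, 1 and 1 higher, and the list 1, 0, 1 and 0 genes lower and 0, 6, 2 and 2 higher. After the shift, NEAT1 had 0, 1, 2 and 1 lower windows, the protein genes 0, 0, 1 and 0 lower and 0, 0, 1 and 0 higher, and the list 1, 0, 3 and 0 genes lower and 0, 1, 0 and 0 higher. In every table but sgMETTL16-1 replicate 1 the subtracted median was positive, which makes negative values larger in size. With a two-sided p every NEAT1 call and all 3 of NONO were kept, SFPQ lost 1 of 6, and the list had 1, 0, 1 and 0 genes lower and 0, 6, 2 and 3 higher. With enriched windows alone, the 14 member calls were kept.

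NEAT1 windows called lower in both tables of a guide numbered 0 at overlaps of 0.5, 0.8 and 0.3, and 1 for each guide with any shared base. Without 1 replicate, the remaining table called 1 window for sgMETTL16-1 and between 1 and 2 for sgMETTL16-2. No called window changed sign. The depth per library is unknown, so a missing call in a short or weakly enriched window is not a sign of equal m6A.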
